A study of Mus musculus with 12 samples.

Results

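The response of ear skin lacking CARD14 to imiquimod was measured on 3 of the 12 arrays of the series, chosen by genotype and treatment in the sample labels. Both 4 h arrays of Card14-/- mice given imiquimod (IMQ) cream were set against the 1 array of untreated Card14-/- mice. The comparison groups came from the other genotypes of the study, all labelled C57BL/6J. Tlr7-/-Tlr9-/- skin had 2 IMQ arrays and 1 untreated array, and Tlr7-/-, Tlr9-/- and wild-type (WT) skin each had 1 IMQ and 1 untreated array. Both ears of the IMQ mice had received 62.5 mg of cream with 5% imiquimod once, and no group given cream without imiquimod was analysed here. Each array was hybridized with 200 ng of Cy3-labelled RNA from whole ears, pooled from 6 to 8 mice, and age, sex and the deleted part of each gene are not given in the labels used here. Nothing says whether the 2 Card14-/- IMQ arrays came from separate pools, so the p-values measure the spread between these arrays, which may be technical.

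In keratinocytes the CARD14 protein assembles BCL10 and MALT1 into a complex that switches on the transcription factor NF-kB, and activating variants in humans cause psoriasis-like skin disease. Imiquimod activates TLR7, an endosomal receptor for RNA in dendritic cells and other leukocytes, which signals through MyD88 to type I interferon and inflammatory cytokines. At high doses it also acts on cells independently of TLR7. The comparison therefore asks which early changes of imiquimod-treated skin are seen in skin without the keratinocyte scaffold.

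The 60-base Card14 probe, shown because it is the check of the genotype, lies on the mm9 build at chr11:119206302-119206361 on the plus strand.
Card14 probe: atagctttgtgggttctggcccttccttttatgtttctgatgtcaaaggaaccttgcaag
Its quantile-normalized signal, on the log2 scale used for every level here, was 9.68 and 9.62 on the Card14-/- IMQ arrays and 9.89 on the untreated Card14-/- array. The 3 Card14-/- arrays averaged 9.73 ± 0.14 (SD, n = 3), against 11.28 ± 0.24 (SD, n = 9) on the arrays of the other genotypes, 2.92-fold lower in Card14-/- skin. All 3 lay below the lowest of the others, at 10.83, and the two-sided exact permutation p was 0.00455, the smallest that 3 against 9 arrays allow. The permutation took each array as independent, although the repeat IMQ arrays of a genotype may share a pool. The probe signal stayed well above background, and the labels do not say whether the probe lies inside the deleted part.

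The arrays had similar shares of detected spots. Each had 59305 spots that were not controls, of which 60.1% to 65.7% were well above background and 0 were saturated. Before normalization, however, the IMQ arrays were dimmer on both slides. At the 75th percentile they spanned 527 to 779, against 1070 to 1236 on the 5 untreated arrays. For Card14-/- skin these levels were 779 and 731 after IMQ and 1070 untreated. Quantile normalization removed this gap before responses were taken, and its cause was not tested. Slide and treatment cannot be told apart for Card14-/-: its IMQ arrays and those of Tlr7-/-Tlr9-/- lay on slide 2, and all 5 untreated arrays and the other IMQ arrays on slide 1. The 2 Card14-/- IMQ arrays differed little, with a median SD over genes of 0.05 on the log2 scale, whereas the untreated pools of the 5 genotypes had a median SD of 0.15. Among the labelled tissue's markers, the keratinocyte keratin gene Krt14 read 18.29 and 18.32 on the IMQ arrays and 18.29 on the untreated array. The summed linear signal of the fibroblast markers was 406890 and 416590 against 446020, and that of the 4 skeletal muscle markers was 211190 and 202560 against 265810. Krt5 was bright on every array but was left out of the fit because its spot carried an outlier flag.

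At 4 h after imiquimod, Card14-/- skin had higher levels of genes for leukocyte-attracting chemokines, interferon-stimulated genes, immediate early genes and hair shaft genes. Of 24074 genes tested, 1067 (4.43%) passed the threshold, an adjusted p under 0.05 in limma with a change of at least 1 on the log2 scale. Of these, 745 rose (3.09% of the genes tested) and 322 fell (1.34%), and the median response of all genes was -0.03. Both IMQ arrays lay above all 5 untreated arrays of the series in 642 of the 745 rises and below all 5 in 226 of the 322 falls. With the 5 untreated arrays as the baseline, 447 of the 745 rises and 144 of the 322 falls remained called. The calls rest on both IMQ arrays, and a fit without 1 of them has fewer residual degrees of freedom by construction. Without replicate 1, 716 of the 745 rises and 299 of the 322 falls kept their sign and a change of at least 1. Without replicate 2, 709 and 299 did. Without either Tlr7-/-Tlr9-/- IMQ array, which also informs the spread, 281 genes were called. Fitting replicate number as a block left 0 calls in limma, with 8666 genes at an unadjusted p under 0.05.

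Ccl20, a chemokine that attracts CCR6-bearing T cells and dendritic cells, had the largest rise among genes with a name and 1 unambiguous probe result. It read 10.98 and 10.94 on the Card14-/- IMQ arrays and 5.59 on the untreated array, a log2 response of 5.37 ± 0.05 (SE), or 41.4-fold (limma adjusted p = 0.00312). Cxcl1, a neutrophil chemokine that signals through CXCR2, read 10.49 and 10.60 on the IMQ arrays and 6.24 on the untreated array, a response of 4.31 ± 0.07 (adjusted p = 0.0037). Both stood far above every untreated array of the series, of which the highest for Ccl20 read 7.22. Il6, the gene of an acute-phase cytokine, was well above background on both IMQ arrays, at 5.98 and 6.23, and not on the untreated array, so that it was at least 3.95-fold higher after IMQ (adjusted p = 0.0125). Where a gene was not well above background on any array of a group, the fold is such a lower bound, taken against the dimmest signal well above background on each array, or the gene's own signal if higher.

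**Figure D1:**
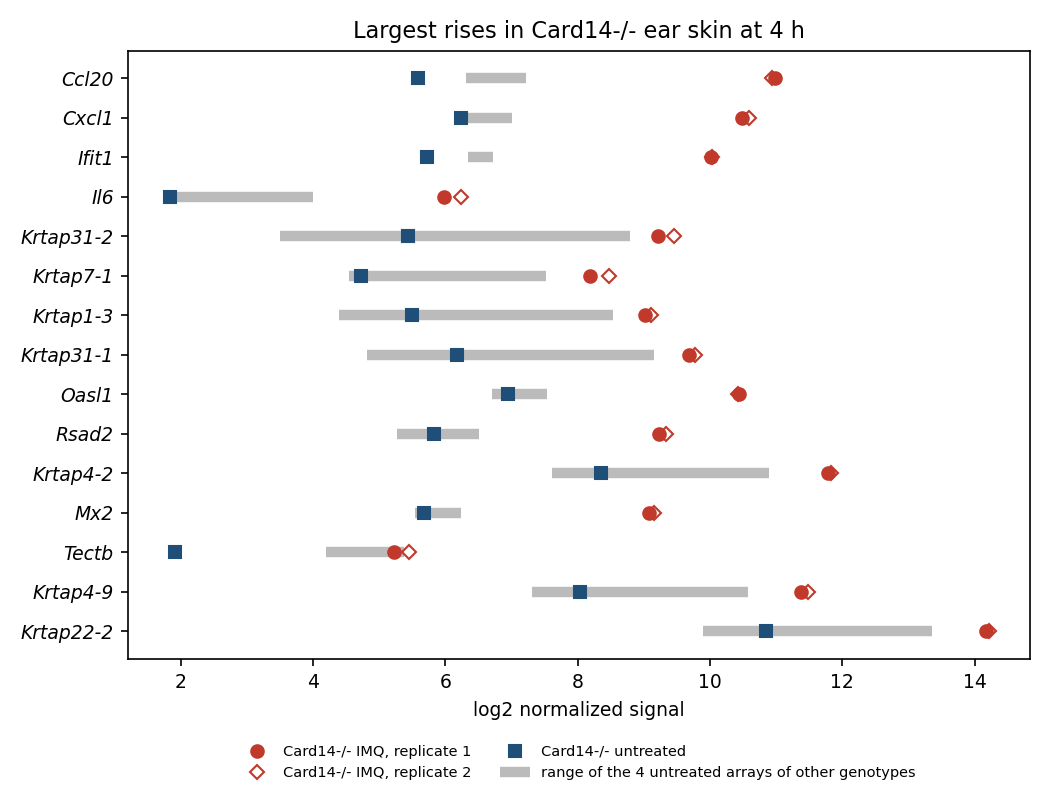
Log2 normalized signal of the 15 genes named for the largest rises in Card14-/- ear skin. Red symbols are the 2 IMQ arrays, blue squares the untreated Card14-/- array and grey bars the range of the 4 untreated arrays of the other genotypes. For Ccl20, Cxcl1 and Ifit1 the IMQ arrays lie far to the right of the grey bar. For Tectb the untreated Card14-/- array, at 1.91, lies well to the left of the grey bar.

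Promoters of 4 strongly raised genes are printed below as examples that hold a match, 2 interferon-stimulated genes and 2 chemokines, and were chosen after their matches were seen. Each runs from 250 bases before to 50 bases after the RefSeq start on GRCm38.p6. Capitals mark the core of the interferon-stimulated response element, spelled GAAA, any 2 bases and GAAA again, on either strand, in Ifit1 and Rsad2, and matches to the NF-kB consensus in Ccl20 and Cxcl1.
Ifit1, chr19:34640639-34640938, plus strand: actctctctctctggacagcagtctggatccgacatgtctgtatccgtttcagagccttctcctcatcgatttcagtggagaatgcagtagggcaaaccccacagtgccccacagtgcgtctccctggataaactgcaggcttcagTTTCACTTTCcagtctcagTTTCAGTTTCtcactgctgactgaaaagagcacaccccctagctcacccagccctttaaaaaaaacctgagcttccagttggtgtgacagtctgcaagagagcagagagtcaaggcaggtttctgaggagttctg
Rsad2, chr12:26456403-26456702, minus strand: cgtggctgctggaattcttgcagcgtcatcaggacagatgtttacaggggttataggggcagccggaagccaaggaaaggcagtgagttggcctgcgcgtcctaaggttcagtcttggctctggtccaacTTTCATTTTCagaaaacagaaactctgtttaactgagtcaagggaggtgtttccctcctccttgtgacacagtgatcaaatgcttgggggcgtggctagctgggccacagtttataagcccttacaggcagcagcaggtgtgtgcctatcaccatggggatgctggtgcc
Ccl20, chr1:83116516-83116815, plus strand: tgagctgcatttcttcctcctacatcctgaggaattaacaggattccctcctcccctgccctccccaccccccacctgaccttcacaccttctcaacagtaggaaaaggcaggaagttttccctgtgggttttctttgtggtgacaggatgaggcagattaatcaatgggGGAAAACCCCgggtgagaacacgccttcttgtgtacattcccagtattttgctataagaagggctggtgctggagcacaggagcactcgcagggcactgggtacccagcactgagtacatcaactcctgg
Cxcl1, chr5:90890995-90891294, plus strand: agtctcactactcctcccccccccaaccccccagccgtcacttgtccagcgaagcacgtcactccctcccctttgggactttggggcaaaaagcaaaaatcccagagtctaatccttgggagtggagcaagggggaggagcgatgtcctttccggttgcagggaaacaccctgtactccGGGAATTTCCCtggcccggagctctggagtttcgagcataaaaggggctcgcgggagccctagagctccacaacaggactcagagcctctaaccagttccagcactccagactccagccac
The interferon-stimulated response element core was found in 22 of the 35 interferon-stimulated gene promoters in the table (62.9%), against 943 of all 27025 promoters (3.49%). A match to either of 2 forms of the NF-kB consensus was found in 11 of the 22 promoters of the CARD14 pathway list, against 1175 of all promoters (4.35%), and in 3 of 18 promoters of the monocyte and lymphocyte chemokine list (16.7%). The promoter of Oasl1, an interferon-stimulated gene that rose as much as Rsad2, held no interferon-stimulated response element core in this window and 1 NF-kB match. A match describes the letters only and says nothing of binding in these samples.

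The CARD14 pathway list holds the scaffold, its partners, the kinases and NF-kB subunits below them, and their feedback inhibitors. Of its 30 measured members 3 rose and 0 fell, and the list's median response was 0.15, against -0.03 over all genes. The 3 that rose were all NF-kB regulators that NF-kB itself induces. Bcl3, an IkB-family cofactor of NF-kB, read 11.30 and 11.31 on the IMQ arrays and 9.37 on the untreated array, a response of 1.94 ± 0.05 (adjusted p = 0.00636). Nfkbiz, which encodes the IkB-zeta protein needed for several psoriasis-related genes, read 9.76 and 9.79 against 8.52, a response of 1.25 ± 0.05 (adjusted p = 0.0087). Tnfaip3, the ubiquitin-editing inhibitor A20, read 11.00 and 11.03 against 9.84, a response of 1.18 ± 0.04 (adjusted p = 0.00822). In all 3 both IMQ arrays were above all 5 untreated arrays, as in 86.2% of all rises. The responses of the other genotypes lay between 1.14 and 1.66 for Bcl3, between 0.84 and 1.41 for Nfkbiz and between 0.60 and 0.79 for Tnfaip3. The difference from Tlr7-/-Tlr9-/- skin was 0.80 ± 0.08 (adjusted p = 0.0685) for Bcl3, -0.15 ± 0.07 (adjusted p = 0.313) for Nfkbiz and 0.41 ± 0.06 (adjusted p = 0.105) for Tnfaip3. For Bcl3, Card14-/- minus Tlr7-/-Tlr9-/- was 0.18 on the IMQ arrays and -0.62 on the untreated arrays. Its untreated Card14-/- array, at 9.37, lay below the other untreated arrays, which read 9.68 to 9.98.

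On the brightest probe of each gene, the remaining members had responses under the size limit. Another probe gave 1.84 for Zc3h12a and 1.09 for Tnip1. Other probes ranged from -0.55 to 0.85 for Malt1 and from -0.34 to 0.21 for Relb. For Bcl10, Rela and Cyld, among others, another probe gave under 0.5 of the response. Nfkbia, encoding the main inhibitor IkB-alpha, read 15.37 and 15.42 on the IMQ arrays and 14.54 on the untreated array, a response of 0.86 ± 0.05 (adjusted p = 0.0118). The signalling partners Bcl10 and Malt1 had responses of 0.33 (adjusted p = 0.0513) and 0.30 (adjusted p = 0.0736). Among the NF-kB subunits the responses were 0.34 for Nfkb1, 0.42 for Relb, 0.21 for Rela, 0.26 for Nfkb2 and 0.14 for Rel. The related scaffolds Card9 and Card10 had responses of 0.23 and 0.03. Card14 itself had a response of -0.24 (adjusted p = 0.0491), under the size limit. Responses of the other upstream members Traf2, Traf3, Traf3ip2, Traf6, Map3k7, Tab2, Chuk, Ikbkb and Ikbkg lay between -0.26 (Ikbkg) and 0.16 (Traf2). Those of the other feedback and RNA-decay members Nfkbib, Nfkbie, Cyld, Tnip1, Zc3h12a and Rc3h1 lay between -0.28 (Cyld) and 0.57 (Zc3h12a). Against WT skin, where 10.5% of all genes passed the test of the difference, 1 of the 30 members did: Traf6, a ubiquitin ligase below TLR and CARD14 signals, with a difference of -1.33 (adjusted p = 0.0134). Its response was -0.03 in Card14-/- and -0.25 in Tlr7-/-Tlr9-/- skin, with IMQ arrays on slide 2, and 1.03 in Tlr7-/-, 1.49 in Tlr9-/- and 1.29 in WT skin, with IMQ arrays on slide 1. Of the 4 other Traf6 probes, 2 disagreed in their Card14-/- response. No measured gene of the list on TLR signalling passed the threshold, 0 of 23, with a median response of 0.22. By adjusted p alone 5 of the 23 were higher and 3 lower, where 11.9% and 13.8% of all genes were.

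**Figure D2:**
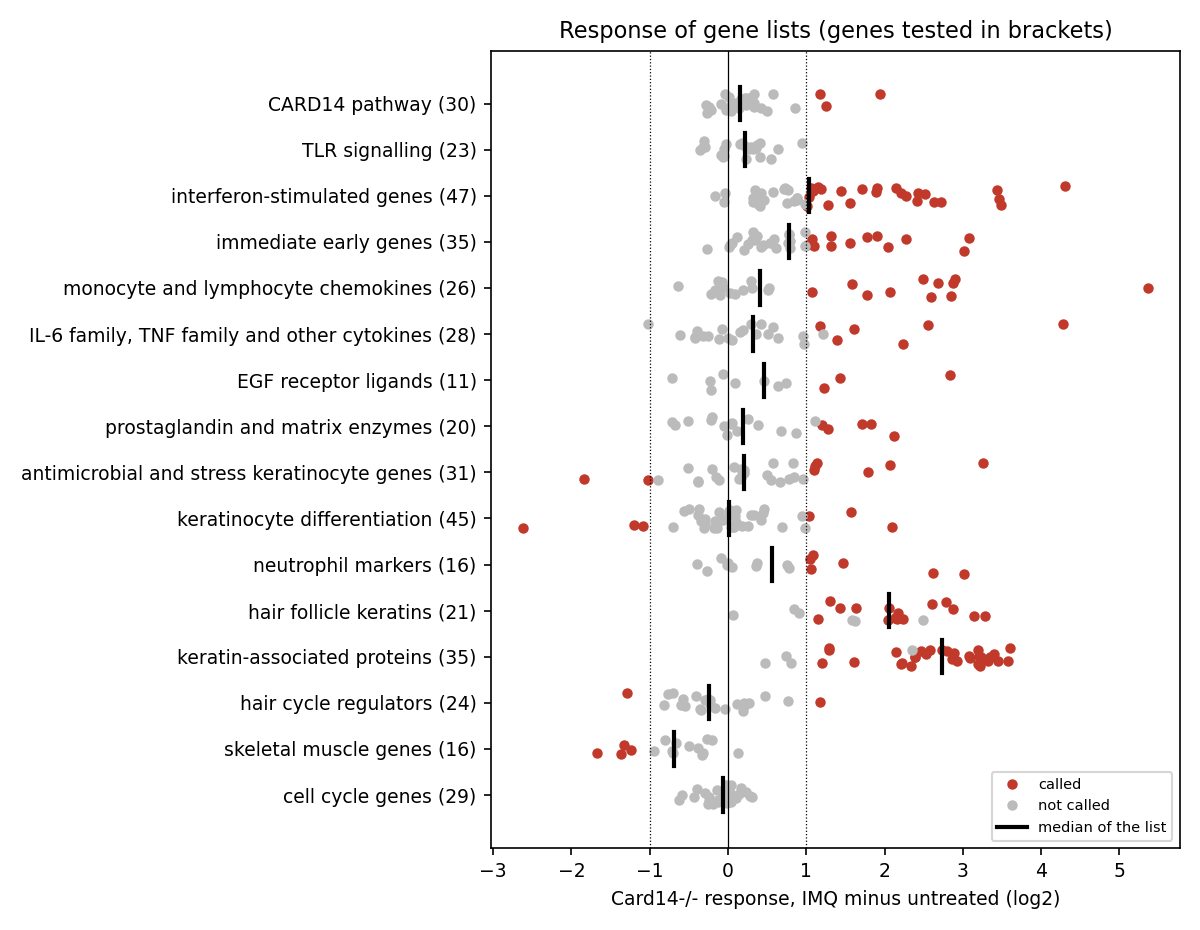
Card14-/- response, IMQ minus untreated on the log2 scale, of the measured genes of 16 lists. Red points passed the threshold, grey points did not, black bars are list medians and dotted lines mark the size limit. The medians are highest for the keratin-associated proteins (2.73), the hair follicle keratins (2.06) and the interferon-stimulated genes (1.04).

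Interferon-stimulated genes, which type I interferon switches on through STAT and IRF factors, rose in 25 of 47 measured members and fell in 0, with a median response of 1.04. Ifit1, an inhibitor of viral RNA translation, read 10.02 and 10.03 on the Card14-/- IMQ arrays and 5.72 on the untreated array, a response of 4.30 ± 0.04 (adjusted p = 0.00312). Oasl1, an OAS-family protein, read 10.45 and 10.42 against 6.94, a response of 3.49 ± 0.09. These arrays did not overlap, and in 24 of the 25 rises both IMQ arrays were above all 5 untreated arrays. Of all rises, 86.2% did the same. Rsad2, the antiviral enzyme viperin, read 9.23 and 9.34 against 5.83, a response of 3.46 ± 0.32 (adjusted p = 0.019). Mx2, an antiviral GTPase, read 9.08 and 9.16 against 5.68, a response of 3.43 ± 0.06 (adjusted p = 0.0037). With the 5 untreated arrays as the baseline 20 of the 25 remained called.

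The same list read differently after IMQ in skin without the nucleic acid receptors. Its median response was 1.04 in Card14-/- skin, -0.41 in Tlr7-/-Tlr9-/-, -0.28 in Tlr7-/- and 0.33 in Tlr9-/- skin, and 1.34 in WT skin. The response was higher in Card14-/- than in Tlr7-/-Tlr9-/- skin for 21 of the 47 members by the test of the difference and lower for 0, where 0.76% and 0.328% of all genes passed. Against WT skin, 1 member had a higher and 2 a lower response in Card14-/-, where 5.15% and 5.34% of all genes passed. Ifit1 read 10.02 and 10.03 on the Card14-/- IMQ arrays and 5.81 and 5.80 on the Tlr7-/-Tlr9-/- IMQ arrays, with 5.72 and 6.35 on their untreated arrays. The difference of response for Ifit1 was 4.85 ± 0.06 (adjusted p = 0.00453). Set against WT skin, which read 10.75 after IMQ and 6.35 untreated, the Ifit1 difference was -0.10 ± 0.06 (adjusted p = 0.299).

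**Figure D3:**
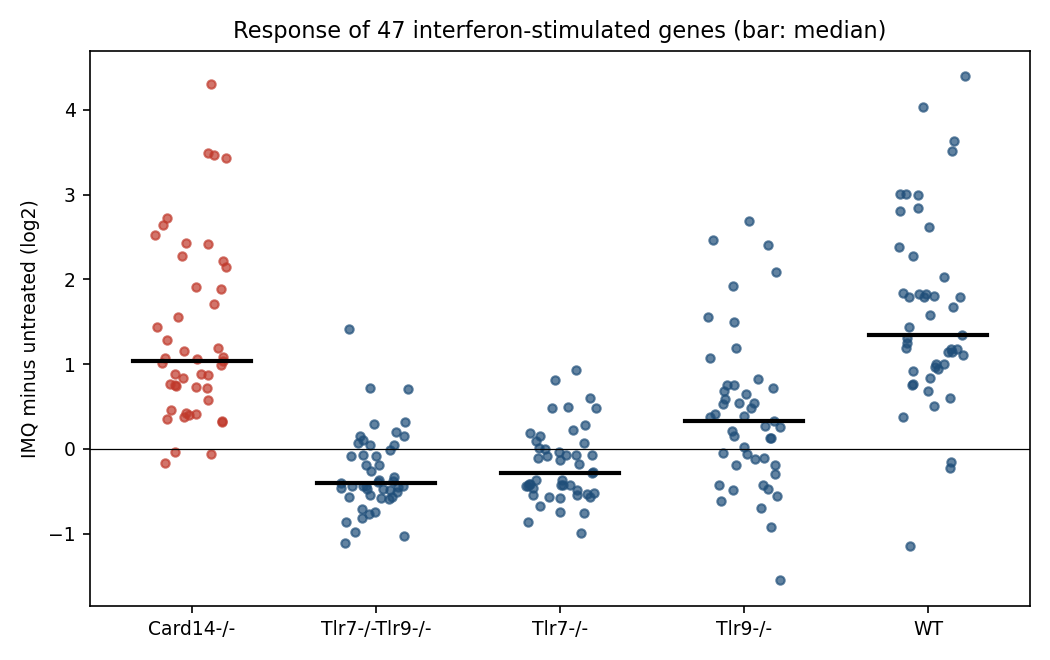
Response to IMQ, on the log2 scale, of 47 interferon-stimulated genes in each genotype, with 1 point per gene and bars at the median. The medians are 1.04 in Card14-/-, -0.41 in Tlr7-/-Tlr9-/-, -0.28 in Tlr7-/-, 0.33 in Tlr9-/- and 1.34 in WT skin.

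Of the chemokines that attract monocytes and lymphocytes, 11 of 26 measured genes rose and 0 fell, with a median of 0.41. Ccl12, a ligand of the monocyte receptor CCR2, read 10.17 and 10.11 on the IMQ arrays and 7.24 on the untreated array, a response of 2.90 ± 0.08 (adjusted p = 0.00637). Ccl1 read 7.22 and 7.35 against 4.41, a response of 2.87 ± 0.10, but another of its probes gave under 0.5 of that. Cxcl10, an interferon-induced ligand of CXCR3, read 9.80 and 9.88 against 6.99, a response of 2.85 ± 0.06 (adjusted p = 0.00464). Each of the 11 had both IMQ arrays above all 5 untreated arrays, as did 86.2% of all rises. All 11 remained called with the 5 untreated arrays as the baseline. For Cxcl10 the response was higher in Card14-/- than in Tlr7-/-Tlr9-/- skin by 3.34 ± 0.09 (adjusted p = 0.00839) and the difference from WT skin was -1.61 ± 0.10 (adjusted p = 0.0134). For Ccl20 the difference from Tlr7-/-Tlr9-/- skin was 0.31 ± 0.07 (adjusted p = 0.157), and for Cxcl1 it was -0.04 ± 0.10 (adjusted p = 0.839). Against WT skin the Ccl20 difference was 1.06 ± 0.08 (adjusted p = 0.0147): Card14-/- minus WT was 0.26 on the IMQ arrays and -0.81 on the untreated arrays. Cxcl2, Cxcl3 and Csf3 were not well above background on any array, and Il17a and Il17f likewise.

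Immediate early genes, transcription factors and phosphatases induced within an hour of growth factor or stress signals, rose in 12 of 35 measured members and fell in 0, with a median of 0.78. Fosl1, an AP-1 subunit, read 8.41 and 8.32 on the IMQ arrays and 5.28 on the untreated array, a response of 3.09 ± 0.06 (adjusted p = 0.00433). Arc, a synaptic immediate early gene, read 9.32 and 9.31 against 7.04, a response of 2.28 ± 0.04. Fos, the prototype AP-1 subunit, read 12.38 and 12.39 against 10.33, a response of 2.05 ± 0.04 (adjusted p = 0.00413). In all 12 the IMQ arrays were above all 5 untreated arrays, as in 86.2% of all rises. Egr4, a zinc-finger factor, was not well above background on the untreated array and was at least 1.64-fold higher after IMQ. The median response of the list was 0.87 in Tlr7-/-Tlr9-/- skin, 0.62 in Tlr7-/-, 0.79 in Tlr9-/- and 0.81 in WT skin. The difference of response was higher in Card14-/- for 1 of the 35 against Tlr7-/-Tlr9-/- skin, the phosphatase gene Dusp2, where 0.76% of all genes were. Against WT skin Fos and Atf3 were higher, by 1.21 and 1.02, and Jun had a difference of -1.12, where 10.5% of all genes passed.

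A minority of cytokine genes rose. Of the IL-6 and TNF families and related cytokines 6 of 28 rose and 0 fell, with a median of 0.32. Besides Il6, Il25, which encodes a type 2 alarmin of the IL-17 family, was at least 3.49-fold higher on the IMQ arrays than on the untreated array (adjusted p = 0.0253). Tnf read 7.46 and 7.43 against 5.84, a response of 1.61 ± 0.07, although another probe gave under 0.5 of that. Tnfsf11, the cytokine RANKL, was at least 1.05-fold higher, with 1 IMQ array above background. Of the 15 measured members of the IL-1 and IL-36 list, Il1b rose, at 6.90 and 7.02 on the IMQ arrays and 5.17 on the untreated array, a response of 1.79 ± 0.07 (adjusted p = 0.0087). Another of its probes gave under 0.5 of that response. Among 11 measured genes of the IL-20 family and the IL-17 axis, 2 rose. Il20, a keratinocyte cytokine that acts on the epidermis, read 7.55 and 7.49 against 5.16, a response of 2.36 ± 0.06 (adjusted p = 0.00534). Il19, its close relative, was at least 1.51-fold higher, but another of its probes gave under 0.5 of the response, and the other untreated arrays read 4.14 to 5.31, as high as the IMQ arrays.

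Some growth factor and matrix genes also rose. Among ligands of the EGF receptor 3 of 11 rose. Epgn, encoding epigen, was at least 4.64-fold higher on the IMQ arrays, at 6.30 and 6.38, than on the untreated array (adjusted p = 0.00702). Areg, encoding amphiregulin, read 7.03 and 6.90 against 5.53, a response of 1.44 ± 0.11. Hbegf, encoding the heparin-binding ligand, read 10.11 and 10.03 against 8.84, a response of 1.23 ± 0.06, with under 0.5 of that on another probe. Of the prostaglandin and matrix enzymes 5 of 20 rose, led by Ptgs2, the inducible cyclooxygenase, at 7.40 and 7.28 against 5.22, a response of 2.12 ± 0.07 (adjusted p = 0.00755). Has1, a hyaluronan synthase, had a response of 1.83 ± 0.25.

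Markers of neutrophils and of activated dendritic and endothelial cells were among the rises, and in pooled whole skin more cells of a type and more RNA per cell cannot be told apart. Of 16 neutrophil markers 6 rose and 0 fell, with a median of 0.56. Retnlg, a granulocyte resistin, was at least 5.28-fold higher on the IMQ arrays, at 6.52 and 6.54, than on the untreated array (adjusted p = 0.0138). Clec4e, a C-type lectin of myeloid cells, was at least 2.83-fold higher. The 6 defining neutrophil markers summed to 29343 and 31373 on the IMQ arrays and 32602 on the untreated array, and this sum was mostly Csf3r, which read 14.54 and 14.66 against 14.86. Ly6g, the most specific of them, read 8.36 and 8.37 against 8.36, a response of 0.00. S100a8, S100a9 and Cxcr2 had responses of 0.83, 1.11 and 1.06, and 3 of these 6 defining markers passed the threshold. Of the 6 that rose among the 16 markers, only 2 remained called with the 5 untreated arrays as the baseline. Cd83, a maturation marker of dendritic cells, read 10.71 and 10.68 against 8.69, a response of 2.01 ± 0.06. The summed signal of the 5 dendritic and Langerhans cell markers was 37919 and 39078 against 37707, and this sum was mostly Cd74. Their responses were 0.98 for Cd207, 0.31 for Itgax, 0.13 for Epcam, 0.07 for Flt3 and -0.06 for Cd74. Sele, the endothelial adhesion molecule E-selectin, was at least 2.58-fold higher, and Icam1 read 12.15 and 12.13 against 10.74, a response of 1.41 ± 0.04. The 4 defining endothelial markers Pecam1, Cdh5, Cldn5 and Kdr had responses of 0.22, 0.32, 0.25 and -0.02. Whether cell numbers play a part in these rises was not tested.

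Epidermal genes moved in both directions. Of 31 measured antimicrobial and stress genes of keratinocytes 6 rose and 2 fell. S100a7a, an antimicrobial S100 protein, was below background on the untreated array and at least 1.99-fold higher after IMQ. Saa3, an acute-phase apolipoprotein, read 7.40 and 7.37 against 5.31, but the other untreated arrays reached 9.34. In only 2 of the 6 rises were both IMQ arrays above all 5 untreated arrays, and 1 of the 6 remained called with these as the baseline. The 2 that fell were Krt6b, a stress keratin, at 8.42 and 8.55 against 10.33, and Defb6, a beta-defensin, at 13.08 and 13.08 against 14.11. Of 45 keratinocyte differentiation genes 3 rose and 3 fell, with a median of 0.02, where 3.09% of all genes rose and 1.34% fell. In 0 of these 3 rises were both IMQ arrays above all 5 untreated arrays, and 0 remained called with these as the baseline. Sprr4, a cornified envelope protein, had the largest fall, reading 7.11 and 6.94 against 9.65, a response of -2.63 ± 0.09 (adjusted p = 0.00765). Both falls of the antimicrobial list and all 3 of the differentiation list lay below all 5 untreated arrays, as did 70.2% of all falls.

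Hair shaft and root sheath genes gave the largest medians of any list. Of 21 hair follicle keratins and trichohyalin-type genes 15 rose and 0 fell, with a median of 2.06, and of 35 keratin-associated proteins, which crosslink hair keratins, 31 rose and 0 fell, with a median of 2.73. Krt34, a hair shaft keratin, read 12.48 and 12.51 on the IMQ arrays and 9.36 on the untreated array, a response of 3.14 ± 0.09 (adjusted p = 0.00637). Krtap4-2 read 11.78 and 11.84 against 8.36, a response of 3.45 ± 0.05 (adjusted p = 0.0037), and Krtap1-3 read 9.02 and 9.11 against 5.49, a response of 3.57 ± 0.11. Krt26 and Krt28 of the inner root sheath had responses of 3.29 ± 0.49 and 2.79 ± 0.07. Krtap family members share sequence, so signal may be split or shared between copies.

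These genes differed widely between untreated pools as well. The mean log2 signal of the 35 keratin-associated proteins was 11.54 and 11.56 on the Card14-/- IMQ arrays and 9.03 on the untreated Card14-/- array, while the other untreated arrays read 8.01 in Tlr7-/-Tlr9-/-, 11.23 in Tlr7-/-, 9.82 in Tlr9-/- and 9.15 in WT skin. For the hair follicle keratins it was 11.88 and 11.87 on the Card14-/- IMQ arrays and 9.94 untreated, and 8.60 to 11.60 on the other untreated arrays. Both IMQ arrays thus exceeded every untreated mean, by a small margin over Tlr7-/-. With the 5 untreated arrays as the baseline 11 of the 31 keratin-associated proteins and 3 of the 15 keratins remained called. With a slide shift taken as the Tlr7-/-Tlr9-/- response (IMQ arrays on slide 2) minus the Tlr7-/- response (slide 1), 0 of the 31 and 0 of the 15 remained. Regulators of the hair cycle did not rise with them as a list, with a median of -0.24. Of 24, 1 rose and 1 fell, where 3.09% and 1.34% of all genes did, and the rise was not above all 5 untreated arrays. By adjusted p alone 2 were higher and 8 lower, where 11.9% and 13.8% of all genes were. Lhx2, a follicle stem cell factor, fell, reading 9.22 and 9.22 against 10.51. The melanocyte markers moved in the same direction without passing the size limit: Pmel, Dct, Tyrp1 and Mlana had responses of 0.66, 0.70, 0.96 and 0.94, and whether the follicles sampled play a part was not tested.

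**Figure D4:**
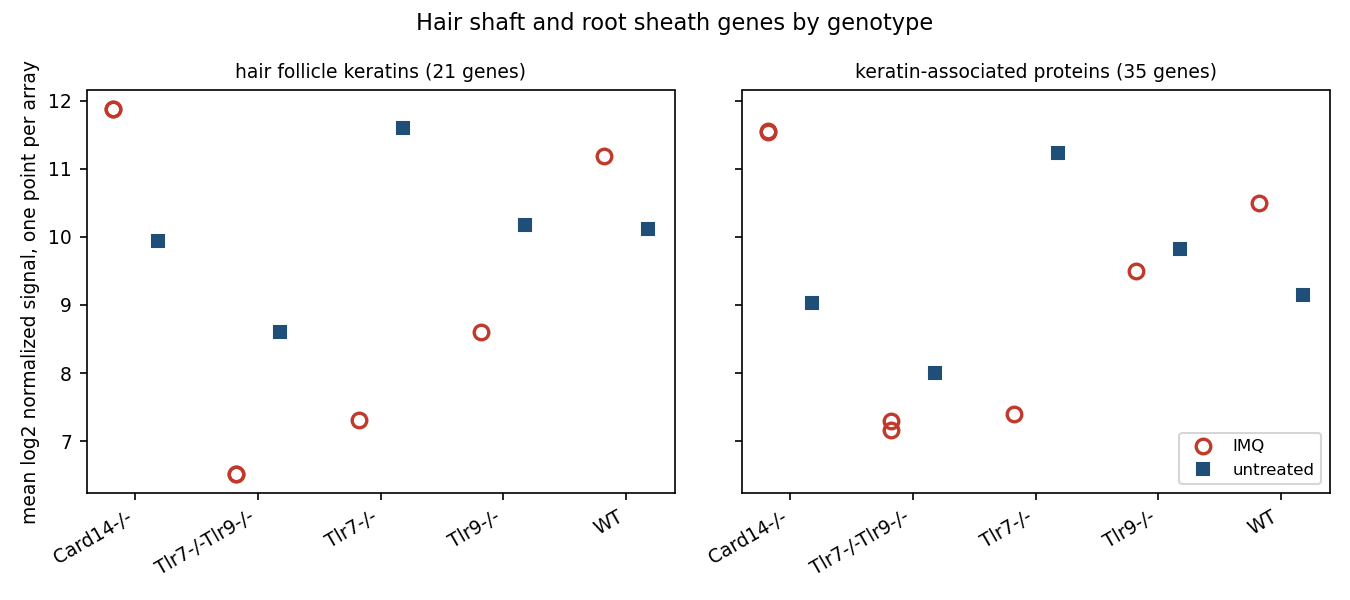
Mean log2 normalized signal of the measured hair follicle keratins (left) and keratin-associated proteins (right), 1 point per array, with IMQ arrays as red circles left of untreated arrays as blue squares in each genotype. Card14-/- and WT skin are higher after IMQ than untreated on both panels, whereas Tlr7-/-Tlr9-/-, Tlr7-/- and Tlr9-/- skin are lower. On the right panel the untreated arrays lie between 8.01 in Tlr7-/-Tlr9-/- and 11.23 in Tlr7-/- skin.

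Most other lists kept fewer calls under both slide alternatives, which also take in differences of response between the other genotypes, so that lost calls cannot be assigned to the slide. Under the slide shift just described, 20 of the 25 interferon-stimulated genes, 11 of the 11 chemokines, 7 of the 12 immediate early genes, 2 of the 3 CARD14 pathway genes, 3 of the 6 IL-6 and TNF family genes and 0 of the 3 EGF receptor ligands remained called. With slide as an additive term in a fit over all genotypes, the counts that remained were 1 of 25, 5 of 11, 2 of 12, 2 of 3, 2 of 6 and 0 of 3 in the same order. Over all genes 254 and 109 of the 745 rises remained.

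Of the 42 lists, skeletal muscle genes had the most falls: 4 of 16 fell and 0 rose, with a median of -0.68. The 4 were Myh2, Myh1, Ryr1 and Mb, which encode myosin heavy chains, the calcium release channel and myoglobin. Myh1 read 14.54 and 14.54 against 15.91, a response of -1.37 ± 0.04 (adjusted p = 0.00681), and Mb read 13.32 and 13.45 against 14.62. All 4 lay below all 5 untreated arrays, as did 70.2% of all falls. Other probes of Myh2 and Ryr1 gave under 0.5 of their responses. Under the slide shift 1 of the 4 remained called, and with slide as an additive term 0. The ear contains muscle, and whether the amount in each pool plays a part was not tested. Sox10, a factor of Schwann cells and melanocytes, read 8.17 and 8.20 against 9.59, a response of -1.40 ± 0.04. Of 10 erythroid genes 2 rose, Ahsp at least 2.63-fold and the globin gene Hbb-b1 at 9.26 and 9.37 on the IMQ arrays and 8.19 on the untreated array. The 3 defining erythroid markers summed to 33492 and 33391 on the IMQ arrays, against 16925 on the untreated array, and whether blood content plays a part in the other rises was not tested. Of 29 measured cell cycle genes 0 passed the threshold in limma, where 4.43% of all genes did. By adjusted p alone 1 was higher and 5 were lower, where 11.9% and 13.8% of all genes were.

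All 10 of the largest named falls went with a high reading of the untreated Card14-/- array. Tas2r106, a bitter taste receptor gene, was not well above background on either IMQ array and at least 21.0-fold lower there than on the untreated Card14-/- array, which read 8.36. The other untreated arrays read 1.77 to 2.09, and none was above background. Krt4, a keratin of mucosal epithelia, was at least 33.7-fold lower on the IMQ arrays than on the untreated Card14-/- array at 9.11, against 3.89 to 4.56 on the other untreated arrays. The pseudogene Nlrp1c-ps read 4.56 and 4.43 on the IMQ arrays and 9.14 on the untreated Card14-/- array, against 4.78 to 5.58 elsewhere. A similar layout was seen for Adcy8, Clca3b, Ccdc183, Epha6, Ppy, Syt14 and Prl3a1. Each was not well above background on either IMQ array and, on the untreated Card14-/- array, above the other 4 untreated arrays. For Adcy8, Ccdc183, Epha6 and Syt14, 1 of these 4 arrays was well above background. For Syt14 the untreated WT array read 4.70, against 5.47 on the untreated Card14-/- array. Among the 322 falls the untreated Card14-/- array lay above all 4 other untreated arrays in 57.5%, against 15.8% of all genes. Among the 745 rises it lay below all 4 in 29.1%, against 20.0% of all genes.

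The difference of response between Card14-/- and Tlr7-/-Tlr9-/- skin compares genotypes whose arrays share a slide layout, slide 2 after IMQ and slide 1 untreated. Of 24074 genes 262 (1.09%) passed, 183 with a higher response in Card14-/- (0.76%) and 79 with a lower one (0.328%). Leaving out any 1 of the 4 IMQ arrays left 0 calls in limma, with 4014 to 4497 genes at an unadjusted p under 0.05. Members of the interferon-stimulated list and of the 2 hair lists made up 21 and 33 of the 183, and hair genes outside the lists, such as Krtap31-1 with a difference of 4.83, passed too. The largest was Krt71, an inner root sheath keratin, which read 15.18 and 15.17 on the Card14-/- IMQ arrays and 13.55 untreated, against 4.96 and 4.26 on the Tlr7-/-Tlr9-/- IMQ arrays and 11.84 untreated. Its difference was 8.86 ± 0.48 (adjusted p = 0.0338), and the others named by rule, Krt25, Krt27, Krtap4-7, Krtap17-1 and Krtap5-1, had differences of 6.76, 5.70, 5.55, 5.52 and 5.50. The hair differences thus joined higher readings in Card14-/- skin after IMQ to lower readings in Tlr7-/-Tlr9-/- skin after IMQ.

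Among lower responses in Card14-/- than in Tlr7-/-Tlr9-/- skin, genes with a group below background were passed over here, although their fitted values reached -6.03 for Tas2r106. Pde5a, a cGMP phosphodiesterase, read 6.37 and 6.32 on the Card14-/- IMQ arrays and 8.83 untreated, against 8.01 and 7.83 on the Tlr7-/-Tlr9-/- IMQ arrays and 8.19 untreated, a difference of -2.22 ± 0.14 (adjusted p = 0.0419). Nphp4, a ciliary protein gene, had a difference of -2.42 and read 8.18 on the untreated Card14-/- array, against 6.05 to 6.33 on the other untreated arrays. For Pde5a the WT arrays read 6.55 after IMQ and 6.52 untreated. The differences of Nmrk2, Il21, Capn11 and Chga were -2.10, -1.60, -1.49 and -1.44. For Capn11 the response was -0.03 in Card14-/- and 1.46 in Tlr7-/-Tlr9-/- skin, whose untreated array was the lowest of the 5, at 8.26. Of the 262 genes, 173 differed more between the IMQ arrays than between the untreated arrays of the 2 genotypes, and 89 more between the untreated arrays. For the interferon-stimulated genes the median difference between Card14-/- and Tlr7-/-Tlr9-/- was 1.19 on the IMQ arrays and -0.12 on the untreated arrays.

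**Figure D5:**
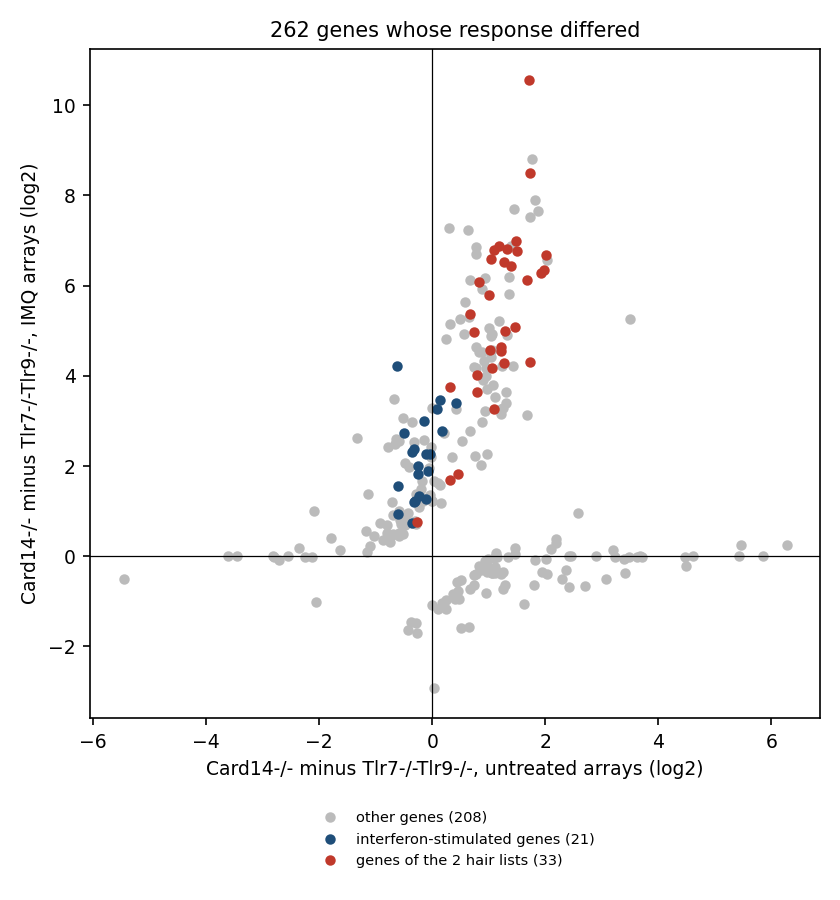
For the 262 genes whose response differed, the difference between Card14-/- and Tlr7-/-Tlr9-/- skin on the IMQ arrays (vertical, log2) against that on the untreated arrays (horizontal, log2). The 21 genes of the interferon-stimulated list (blue) and 33 of the 2 hair lists (red) lie in the upper part, apart on the IMQ arrays. Many other genes (grey) lie near the horizontal axis, apart on the untreated arrays only.

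Against WT skin, whose 2 arrays were single and on slide 1, the response of 2524 genes (10.5%) differed, with 1239 higher in Card14-/- (5.15%) and 1285 lower (5.34%). Without either Card14-/- IMQ array, or either Tlr7-/-Tlr9-/- one, limma called 0, with 9369 to 10270 genes at an unadjusted p under 0.05. The share of higher responses was 49.1%, but 32.5% with 75th percentile scaling, 31.9% with normexp background correction and 37.7% in the authors' deposited table. Saa3 had the largest higher difference, at 4.30 ± 0.20 (adjusted p = 0.0133): it read 7.40 and 7.37 after IMQ and 5.31 untreated in Card14-/- skin, and 7.11 after IMQ and 9.34 untreated in WT skin. For Saa3 the untreated arrays thus differed more than the IMQ arrays. Cyp2g1, a cytochrome P450, Tac4, a tachykinin, and Manea, a mannosidase, had differences of 3.38, 2.95 and 2.85. For Tac4 and Manea the WT array after IMQ was the low one, at 5.69 and 4.44. Among lower differences, Hmox1, encoding heme oxygenase 1, read 13.38 and 13.41 after IMQ and 12.91 untreated in Card14-/- skin, against 13.53 after IMQ and 9.41 untreated in WT skin, a difference of -3.63 ± 0.07 (adjusted p = 0.00976). The untreated WT array was the lowest of the 5 for Hmox1, and the highest of the other genotypes read 13.12. Cldn24, Rhox3a, Tmem52b, Mrgprg and Nlrp1c-ps had differences of -3.94, -3.86, -3.59, -3.55 and -5.06. For Cldn24, Rhox3a, Tmem52b and Mrgprg the WT responses were 5.50, 5.74, 5.23 and 5.34, the highest of all genotypes. Card14-/- responses were 1.56, 1.88, 1.64 and 1.79. Tlr7-/-Tlr9-/- responses were 2.17, 2.67, 2.53 and 1.83, and none passed the test of the difference from Card14-/-. Those in Tlr7-/- and Tlr9-/- skin lay between 2.29 and 4.30. For Nlrp1c-ps the untreated Card14-/- array was the high one, at 9.14.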

How the data were processed

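Whole ear skin was profiled on 12 one-colour Agilent arrays, and the members and gene lists described here were chosen with earlier results of these data known. Per the file headers, the deposited scanner intensity values are background-subtracted processed signals from Agilent Feature Extraction. The authors' deposited log2 table holds background-subtracted and between-array normalized values, per the submitters' processing notes and the values themselves, and served only as an alternative.

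Processed signals were averaged over spots of a probe, taken to log2 and quantile normalized in limma 3.58.1 under R 4.3.3. Probes with an outlier flag (246) were removed, a filter kept the 37114 probes that 2 or more arrays read well above background, and the brightest probe stood for each of 24074 genes. One limma model with empirical Bayes variances covered all 10 groups, leaving 2 residual degrees of freedom, both from repeat arrays. Adjusted p-values are Benjamini-Hochberg values over all genes. Named genes are the 15 largest rises and 10 largest falls among called genes with a gene name, no repeat sequence and no disagreeing probe (one with under 0.5 of the response), up to 4 per list, and the 6 largest differences in each direction. CARD14 pathway members and cell type markers were named as lists, and 1 pathway member is not reported here. In the differences, genes with a group below background were passed over, chosen after seeing the data. The number of arrays limits the precision. Replicate numbers were checked for pairing: deviations of the repeat arrays correlated at 0.06, and nothing in the labels ties equal numbers together. Promoters come from RefSeq on GRCm38.p6, and the probe position from the array files on mm9. The fit was tested on simulated data. Alternatives are in the closing section.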

Additional observations from a re-analysis of the deposited data

Results flagged for a closer look

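The difference of response itself was tested in limma, and the results below are those that passed among the genes named for the Card14-/- response or for that difference. Between Card14-/- and WT skin 2524 genes differed. The differences were 4.30 for Saa3, 3.38 for Cyp2g1, 3.21 for Krtap7-1, 2.95 for Tac4, 2.88 for Krtap1-3 and 2.85 for Manea, and -5.06 for Nlrp1c-ps, -3.94 for Cldn24, -3.86 for Rhox3a, -3.63 for Hmox1, -3.59 for Tmem52b and -3.55 for Mrgprg. Among genes named for the response they were 2.29 for Krtap31-1, 1.82 for Krtap4-2, 1.504 for Krtap22-2 and 1.06 for Ccl20. For genes below background in a Card14-/- group the fitted differences, which are no bounds, were 2.47 for Tectb, 2.43 for Il6, -9.85 for Clca3b, -8.17 for Tas2r106, -4.35 for Ccdc183, -3.90 for Adcy8 and -3.51 for Prl3a1. Of the 2524 genes, 2119 differed more between the IMQ arrays, which lay on different slides, than between the untreated arrays, which shared a slide. Genotype and slide cannot be told apart in the IMQ part of this comparison.

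Between Card14-/- and Tlr7-/-Tlr9-/- skin 262 genes differed. Differences of hair genes were 8.86 for Krt71, 6.76 for Krt25, 5.70 for Krt27, 5.69 for Krtap1-3, 5.55 for Krtap4-7, 5.52 for Krtap17-1, 5.50 for Krtap5-1, 4.83 for Krtap31-1, 4.24 for Krtap4-2 and 3.05 for Krtap22-2. Among interferon-stimulated genes the differences were 4.85 for Ifit1, 3.32 for Mx2 and 3.17 for Oasl1. Lower responses in Card14-/- were -2.42 for Nphp4, -2.22 for Pde5a, -2.10 for Nmrk2, -1.60 for Il21, -1.49 for Capn11 and -1.44 for Chga. For genes below background on both Card14-/- IMQ arrays the fitted differences, which are no bounds, were -6.03 for Tas2r106, -4.71 for Clca3b, -3.68 for Syt14 and -3.49 for Prl3a1.

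A control probe of the adenoviral E1A spike-in series, outside the skin genes, read 6.92 and 6.92 on the Card14-/- IMQ arrays and 5.71 on the untreated array, 1.21 higher after IMQ on the log2 scale of the processed signal. Over all genotypes it read 6.66 to 8.18 on the IMQ arrays and 5.14 to 5.71 on the untreated arrays. It was the only 1 of 10 probes of this series that was higher on the Card14-/- IMQ arrays. The others were dimmer and read lower on both. The brightest of them read 4.64 and 4.67 on the IMQ arrays, against 4.85 on the untreated Card14-/- array.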

How the results depend on the processing

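The Card14-/- response gave 1067 calls, against 526 with normexp background correction, 672 in the authors' deposited table, 6191 by adjusted p alone, 281 with the 3 Card14-/- arrays alone and 587 with an additive slide term, which moved the median of all genes to -0.12. Leaving out 1 repeat array gave 0 to 281 calls. Without a filter on dim probes the share of rises was 49.0%, against 69.8%, and with the slide shift taken from the other genotypes it was 59.0%. Under that shift Krtap22-2, Krtap4-2 and Krtap7-1 turned to -0.95, -0.11 and -0.17. The difference from Tlr7-/-Tlr9-/- gave 262 calls, 747 without the filter on dim probes, and 0 without any 1 repeat array. The difference from WT gave 2524 calls, 1388 with normexp, 7558 by adjusted p alone, and 0 without any 1 repeat array. In each case the leave-out fit has fewer residual degrees of freedom by construction, and the other causes were not tested. With replicate number as a block, a pairing the labels do not give, the response and both differences had 0 calls, with 8666, 4720 and 9812 genes at an unadjusted p under 0.05 in limma. Taking both IMQ arrays beyond all 5 untreated arrays, an alternative chosen after seeing the data, left 868 of the 1067 calls. All 25 genes named for the response kept their call with 75th percentile scaling and with the mean of a gene's probes, 10 kept it with the 5 untreated arrays as baseline, 4 with the additive slide term and 11 under the slide shift, where 3 reversed. Of the 25, 25 lost it without either Card14-/- IMQ array and with the block. One untreated pool and 2 repeat arrays limit every call.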
